A study of Rattus norvegicus with 9 samples.

Results

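Collagen crosslinking and folding enzymes were followed at the mRNA level through 10 genes chosen by name. The rule used no measured value, but earlier results of these data were known when the genes were chosen. These were the lysyl oxidases Lox, Loxl1, Loxl2, Loxl3 and Loxl4, the lysyl hydroxylases Plod1 and Plod2, the prolyl hydroxylase subunits P4ha1 and P4ha2, and the collagen chaperone Serpinh1. All 10 were among the 19085 genes of the deposited table, and all 10 were among the 13256 genes with enough counts for a test. Their changes were read against that of Col1a1, which encodes the main chain of type I collagen.

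Type I collagen is the main protein of bone matrix, and its chains are modified in the endoplasmic reticulum before they fold. Prolyl hydroxylases make the hydroxyproline that keeps the triple helix stable, lysyl hydroxylases make the hydroxylysine that later crosslinks build on, and the chaperone HSP47, encoded by Serpinh1, binds the folded helix on its way out of the cell. Outside the cell, lysyl oxidases oxidise lysine and hydroxylysine side chains, and the resulting aldehydes form the covalent crosslinks that give a collagen fibril its strength.

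The cells were primary osteoblasts, which the culture protocol and the paper describe as isolated from the calvaria of male Sprague-Dawley rats 24 hours after birth. The tissue field of the labels says knee instead. The Control group was kept for 7 days in osteogenic induction medium, which held serum, β-glycerophosphate, ascorbic acid (a cofactor of the hydroxylases) and dexamethasone. The Thrombin group received 20 U/mL of thrombin, a clotting protease, in that medium. The PD03 group received the same thrombin together with PD0325901, an inhibitor of the kinases MEK1/2, at 0.1 μM in the paper and 0.1 mM in a protocol of the labels. No group received PD03 alone, so PD03 could be compared only with thrombin present or against untreated cells. Each group had 3 libraries of polyA RNA. The paper calls them independent samples, but the labels do not tie them to animals or cultures, so the p-values measure the spread between these samples.

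Total counts lay between 15447832 and 19841468 per library, and the 9 pairs of libraries that share a group differed beyond counting error, with chi-square values of 1.81 to 4.04 for each degree of freedom. Of 10 osteoblast markers, 7 could be tested. Col1a1 and Col1a2 made up nearly all of their summed level, which was 60600 to 66400 CPM (counts brought to 1 library size by TMM) in the control group, 55600 to 58800 in the thrombin group and 95000 to 98100 in the PD03 group. The markers of late osteoblasts and osteocytes were at or near 0, with 1 to 5 counts of Bglap, 0 or 1 of Ibsp and 0 to 4 of Dmp1 per library. The summed myeloid markers stayed between 1.58 and 3.11 CPM and the endothelial markers between 7.29 and 14 CPM, with the highest values of both in the PD03 group. The chondrocyte markers summed to 95.2 to 105 CPM in the control group, 70.9 to 77.5 in the thrombin group and 90.5 to 97.7 in the PD03 group, and the adipocyte markers, almost all from Lpl, to 201 to 212, 97.8 to 104 and 155 to 165 CPM. The part of these shifts in the results was not tested, and in bulk RNA fewer cells of a type and less RNA per cell cannot be told apart.

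Col1a1 set the reference. It stood at 44276, 49239 and 48728 CPM in the 3 control libraries, at 44477, 42929 and 41077 CPM in the thrombin libraries and at 73092, 71116 and 72055 CPM in the PD03 libraries. The thrombin libraries reached into the control range, and all 3 PD03 libraries lay far above both groups. To be called, a gene needed an adjusted p-value below 0.05 and a log2 fold change beyond 0.58 in either direction (edgeR's quasi-likelihood test, Benjamini-Hochberg adjustment over all 13256 genes), and log2 fold changes are given with their standard error (SE). The log2 fold change of Col1a1 was -0.15 with thrombin against control (SE 0.029, adjusted p = 1e-04), which was under the fold threshold. Col1a1 rose by 0.75 in PD03 against thrombin (SE 0.029, adjusted p = 1.9e-24) and by 0.60 against control (SE 0.029, adjusted p = 7.2e-21). The latter was 0.56 without the first control library and 0.49 with library totals or the deposited FPKM, under the fold threshold. The second chain of type I collagen, Col1a2, had log2 fold changes of -0.22, 0.75 and 0.54 in the same comparisons, and the difference in change between the 2 chains did not pass the test in any of them (adjusted p = 0.28, 0.98 and 0.20).

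Single markers did not follow the sums. Among the osteoblast markers, Alpl, the alkaline phosphatase of mineralising cells, fell by 2.24 with thrombin (adjusted p = 4e-05) from low counts and rose by 3.14 in PD03 against thrombin (adjusted p = 2.8e-09). The transcription factor gene Runx2 was at 0.26 with thrombin (adjusted p = 0.0022) and fell by 0.67 in PD03 against thrombin (adjusted p = 2.5e-11), and Sp7 was at 0.53 with thrombin (adjusted p = 0.018) and -0.31 in PD03 against thrombin (adjusted p = 0.13). The fall of the chondrocyte sum with thrombin was carried by Col2a1, which fell by 0.78 (adjusted p = 1.3e-14), whereas Sox9, Acan and Matn3 rose by 0.89, 1.29 and 1.27. In PD03 against thrombin Col2a1 was at 0.19 (adjusted p = 0.0063), not called. There Comp rose by 2.16 (adjusted p = 1.7e-14), from a mean of 2.44 to 10.97 CPM, and Col9a1 by 0.98 (adjusted p = 2.3e-06). In PD03 against control 5 of the 6 chondrocyte markers were called higher and 1, Col2a1, lower (all genes 4.90% and 4.07%). Acan and Matn3 were low, with 7 to 33 and 15 to 54 counts per library, and had adjusted p = 0.038 and 0.039 there.

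The 10 enzyme and chaperone genes did not move as a block. A different gene was called in each comparison, always upward: Plod2 rose with thrombin, Serpinh1 rose in PD03 against thrombin, and Loxl2 rose in PD03 against control. With thrombin, 1 of 10 was called higher and 0 lower, where 2.62% of all tested genes were called higher and 5.44% lower. In PD03 against thrombin the counts were 1 and 0, where 9.61% and 6.31% of all genes were called, and in PD03 against control they were 1 and 0, where 4.90% and 4.07% were called.

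By the adjusted p-value alone, 4 of the 10 were higher and 3 lower with thrombin (all genes 14.1% and 14.6%). With PD03 against thrombin 6 were higher and 3 lower (all genes 25.3% and 24.5%), and in PD03 against control 7 were higher and 1 lower (all genes 19.7% and 20.2%). The libraries of the compared groups did not overlap for 9, 9 and 8 of the 10 genes, where this was so for 40.3%, 55.5% and 47.8% of all genes. The median log2 fold change of the 10 genes was 0.0414, 0.272 and 0.346 in the 3 comparisons, where the medians of all tested genes were -0.00602, 0.0109 and -0.00395. The comparisons share libraries, since each group enters 2 of them.

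**Figure D1:**
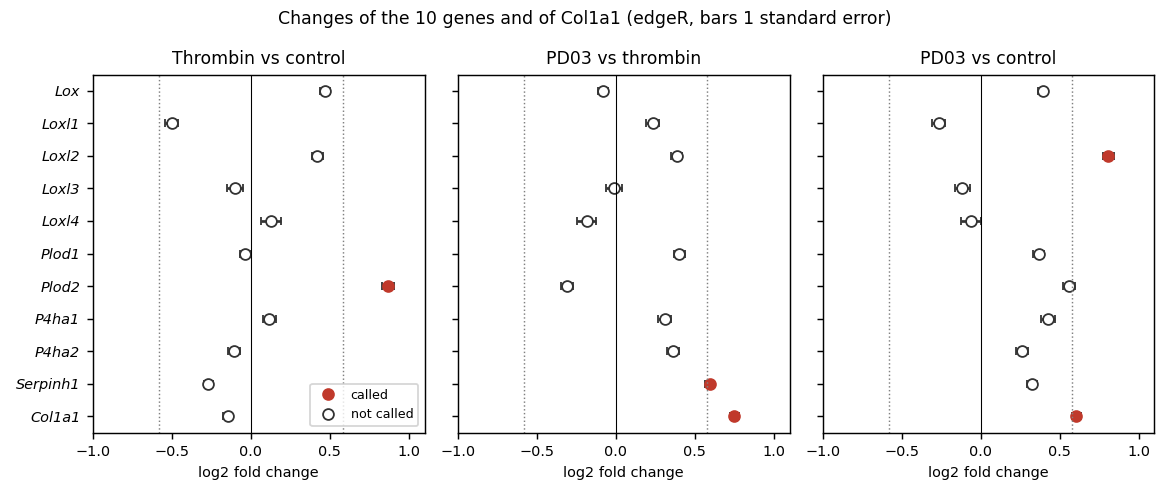
Log2 fold changes (x axis) of the 10 genes and of Col1a1 (rows) in the 3 comparisons, with bars of 1 standard error from the edgeR fit over 9 libraries, dotted lines at the fold threshold of 0.58 and filled red points for called genes. Plod2 stands at 0.87 with thrombin, Serpinh1 at 0.60 in PD03 against thrombin and Loxl2 at 0.81 in PD03 against control.

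**Figure D2:**
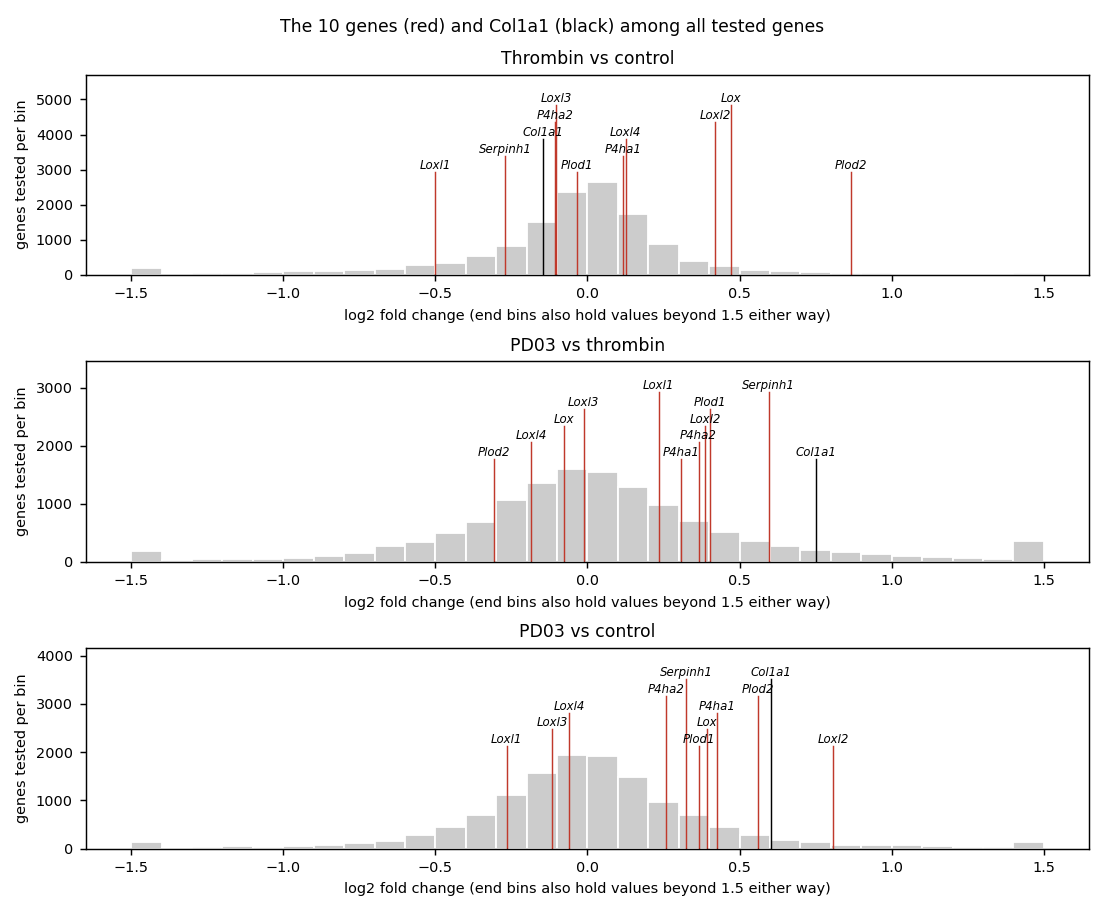
Histograms of the log2 fold changes of all 13256 tested genes (x axis, log2 fold change; y axis, genes per bin), with red lines for the 10 genes and a black line for Col1a1. Plod2 lies in the far right of the first panel, and in the second panel all 10 genes lie left of Col1a1.

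The lysyl oxidases went different ways with thrombin. Lox, the founding enzyme of the family and the one with the highest FPKM (a level per gene length, as deposited) among the 5 in every group, stood at 940.4, 932 and 935 CPM in the control libraries, 1319.8, 1278 and 1291 CPM in the thrombin libraries and 1193, 1232 and 1258 CPM in the PD03 libraries. All thrombin and PD03 libraries were above all control libraries, and all PD03 libraries were below all thrombin libraries. The log2 fold change of Lox was 0.47 with thrombin (SE 0.031, adjusted p = 2.9e-16), -0.08 in PD03 against thrombin (SE 0.031, adjusted p = 0.033) and 0.39 in PD03 against control (SE 0.031, adjusted p = 7e-14), all under the fold threshold.

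Loxl1, a lysyl oxidase known above all for its role in elastic fibres, showed the opposite order. Its levels were 424, 453 and 466 CPM in the control group, 326, 308 and 315 CPM in the thrombin group and 402, 361 and 353 CPM in the PD03 group. The 3 groups did not overlap, with thrombin lowest and PD03 between thrombin and control. The log2 fold changes were -0.50 with thrombin (SE 0.041, adjusted p = 2.9e-13), 0.23 in PD03 against thrombin (adjusted p = 7.7e-06) and -0.27 in PD03 against control (adjusted p = 1e-06), none past the fold threshold.

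Loxl2, a secreted lysyl oxidase with scavenger receptor domains, was higher at each step from control to thrombin to PD03. It was measured at 314, 324 and 331 CPM in the control libraries, 427, 436 and 434 CPM in the thrombin libraries and 548, 574 and 576 CPM in the PD03 libraries. Each group lay wholly above the one before. The log2 fold change was 0.42 with thrombin (SE 0.035, adjusted p = 4.1e-13) and 0.39 in PD03 against thrombin (SE 0.035, adjusted p = 1.1e-12), each short of the threshold, and Loxl2 rose by 0.81 in PD03 against control (SE 0.035, adjusted p = 2.5e-22), a 1.75-fold higher level. Of all tested genes, 3.39% had a larger log2 fold change in that comparison, among them none of the other 9 genes.

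Loxl3 and Loxl4, which like Loxl2 carry scavenger receptor domains, had the lowest lysyl oxidase levels per gene length, and neither was called in any of the 3 comparisons of its own level. Loxl3 ranged from 119 to 123 CPM in the control group, from 107 to 117 CPM in the thrombin group and from 105 to 123 CPM in the PD03 group, where 1 of 3 libraries reached the control range. Its log2 fold changes of -0.10, -0.01 and -0.12 did not pass the test (adjusted p = 0.13, 0.86 and 0.065). Loxl4 libraries spanned 39.9 to 44.8 CPM for control, 45.1 to 47.9 CPM for thrombin and 39.9 to 42.2 CPM for PD03, and its log2 fold change of -0.18 in PD03 against thrombin had an adjusted p of 0.012. The values of Loxl4 against control were 0.13 with thrombin and -0.06 with PD03 (adjusted p = 0.13 and 0.49).

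Summed over the 5 lysyl oxidases, the deposited FPKM values gave 846 ± 4.72 in the control group, 1009 ± 16.3 in the thrombin group and 951 ± 7.16 in the PD03 group (SD, n = 3). Lox made up 64.0% ± 0.930 of that sum in the control group, 73.4% ± 0.124 in the thrombin group and 68.9% ± 1.25 in the PD03 group, while Loxl1 made up 22.3% ± 0.842, 13.05% ± 0.181 and 15.2% ± 1.20. The share of Loxl2 was 7.95% ± 0.121, 8.81% ± 0.224 and 11.4% ± 0.248. For these sums and shares no 2 groups overlapped, and each pair of groups gave p = 0.1 in a two-sided exact permutation test, the smallest p that 3 against 3 libraries allow.

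Of the 2 lysyl hydroxylases, Plod2 rose with thrombin and Plod1 was not called. Plod2 encodes LH2, the enzyme that hydroxylates lysines in the telopeptides, the short ends of the collagen chain from which crosslinks start. It was at 207, 211 and 203 CPM in the control libraries, 381, 376 and 377 CPM in the thrombin libraries and 291, 316 and 309 CPM in the PD03 libraries. The groups did not overlap, and the PD03 libraries fell between the other two groups. Plod2 rose by 0.87 with thrombin (SE 0.038, adjusted p = 1.8e-22), a 1.82-fold higher level, and only 1.58% of all tested genes had a larger log2 fold change. In PD03 against thrombin its log2 fold change was -0.31 (SE 0.037, adjusted p = 2.3e-09), and in PD03 against control it was 0.56 (SE 0.038, adjusted p = 4.5e-16), just short of the threshold. Without the first PD03 library that last value was 0.59, past it.

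Plod1 encodes LH1, which hydroxylates lysines within the helix. It was at 269, 281 and 283 CPM in the control group, 272, 267 and 274 CPM in the thrombin group and 366, 350.0 and 357 CPM in the PD03 group. The control and thrombin libraries overlapped, and the PD03 libraries were all above both. The log2 fold change was -0.03 with thrombin (adjusted p = 0.54), 0.40 in PD03 against thrombin (SE 0.036, adjusted p = 1.6e-12) and 0.37 in PD03 against control (SE 0.036, adjusted p = 3.4e-11), both under the fold threshold.

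Per gene length, the FPKM of Plod2 divided by that of Plod1 was 0.846 ± 0.0291 in the control group, 1.58 ± 0.0171 in the thrombin group and 0.968 ± 0.0617 in the PD03 group. Plod1 thus had the higher FPKM in all 3 control libraries and Plod2 in all 3 thrombin libraries, and the PD03 libraries lay on both sides of equality at 0.900, 1.02 and 0.981. No 2 groups overlapped (exact permutation p = 0.1 for each pair).

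The promoters of this pair are shown because thrombin gave a call for one gene and not for the other. RefSeq sequences of the rat assembly GRCr8, which is not the assembly of the deposited counts, were found for 8 of the 10 genes, and the 250 bases before the annotated start were searched on both strands for 7 short motifs. Below, capitals mark ACGTG, a form of the core that hypoxia-inducible factors bind, which reads CACGT on the opposite strand. Plod2 (chr8:101964068-101964317, plus strand) held it 2 times, with first bases 178 and 133 bases before the start, and Plod1 (chr5:163650738-163650987, minus strand) 0 times. GCGTG, the other form of that core, is not marked and stood in both promoters.
Plod2: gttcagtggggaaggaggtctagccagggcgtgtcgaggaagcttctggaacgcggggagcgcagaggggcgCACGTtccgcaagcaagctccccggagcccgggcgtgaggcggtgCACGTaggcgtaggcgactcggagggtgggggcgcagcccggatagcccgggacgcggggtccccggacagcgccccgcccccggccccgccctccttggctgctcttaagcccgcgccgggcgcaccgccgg
Plod1: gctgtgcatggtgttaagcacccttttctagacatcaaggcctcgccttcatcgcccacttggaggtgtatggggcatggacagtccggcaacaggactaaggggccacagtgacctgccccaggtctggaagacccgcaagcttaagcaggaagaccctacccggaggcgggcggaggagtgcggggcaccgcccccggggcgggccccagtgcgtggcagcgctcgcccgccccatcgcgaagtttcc

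ACGTG was present in 2 of the 8 promoters, those of Plod2 and P4ha2, and in 16.6% of all 33469 promoters of that length. GCGTG, the form of the core that differs from it in the first base only, was present in 5 of 8 (Loxl3, Plod1, Plod2, P4ha1 and P4ha2) and in 25.9% of all promoters. TGACTCA, the letters that AP-1 binds, was in 0 of 8 and in 4.05% of all promoters, and TATAAA was in 0 of 8 and in 12.9%. CCAAT was in 1 of 8 (Loxl4) and in 34.0% of all, and GGGCGG in 5 of 8 (Loxl4, Plod1, Plod2, P4ha2 and Serpinh1) and in 30.5%. A match says only that these letters stand in the window.

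Of 14 listed genes known to respond to low oxygen, 12 could be tested, and they went both ways. With thrombin 0 were called higher and 1 lower (all genes 2.62% and 5.44%), and by the adjusted p-value alone 4 were higher and 3 lower (all genes 14.1% and 14.6%). PD03 against thrombin had 3 called higher and 2 lower (all genes 9.61% and 6.31%), and PD03 against control 2 higher and 1 lower (all genes 4.90% and 4.07%). By the adjusted p-value alone PD03 against thrombin had 6 higher and 5 lower (all genes 25.3% and 24.5%). PD03 against control had 4 higher and 6 lower by it (all genes 19.7% and 20.2%). The median log2 fold changes were -0.0489, 0.208 and -0.0791. The 4 genes that were higher with thrombin by the adjusted p-value were all lower in PD03 against thrombin, the same signs as Plod2: Eno1 (0.40 and -0.71), Slc2a1 (0.35 and -0.57), Ldha (0.30 and -0.32) and Pgk1 (0.10 and -0.37), which act in glucose uptake and glycolysis. Of these 8 values, only that of Eno1 in PD03 against thrombin was called. Adm, which encodes the vasodilator peptide adrenomedullin, fell by 0.91 with thrombin (adjusted p = 7.7e-23) and rose by 0.77 in PD03 against thrombin (adjusted p = 1e-20), the opposite signs to Plod2. Ndrg1 had the signs of Adm, at -0.55 with thrombin and 0.33 in PD03 against thrombin (adjusted p = 8.8e-11 and 3.3e-06), neither called. Car9, a membrane carbonic anhydrase, rose by 1.22 in PD03 against thrombin (adjusted p = 1.8e-12) and by 0.99 against control (adjusted p = 6.2e-10). Pfkfb3, a regulator of glycolysis, rose by 0.81 and 0.71, while Egln3, a prolyl hydroxylase of the hypoxia-inducible factors, fell by 0.67 and 1.19. With thrombin against control Egln3 was at -0.51 (adjusted p = 0.034), not called.

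The prolyl hydroxylase subunits P4ha1 and P4ha2 were close to control with thrombin and higher with PD03. P4ha1 encodes a catalytic subunit of prolyl 4-hydroxylase. It stood at 129.6, 134 and 133 CPM in the control libraries, 143, 139 and 148 CPM in the thrombin libraries and 178, 174 and 181 CPM in the PD03 libraries, and no 2 groups overlapped. The log2 fold changes were 0.12 with thrombin (adjusted p = 0.032), 0.31 in PD03 against thrombin (SE 0.041, adjusted p = 3.1e-08) and 0.43 in PD03 against control (SE 0.042, adjusted p = 2.6e-11).

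P4ha2, the other catalytic subunit measured, was at 232, 237 and 228 CPM in the control group, 205, 224 and 217 CPM in the thrombin group and 279, 277 and 277 CPM in the PD03 group. Thrombin was the lowest group and PD03 the highest, without overlap. The log2 fold change was -0.11 with thrombin (adjusted p = 0.034), 0.37 in PD03 against thrombin (SE 0.038, adjusted p = 9.4e-11) and 0.26 in PD03 against control (SE 0.038, adjusted p = 4.3e-07). All 6 values of the 2 subunits were under the fold threshold. The FPKM of P4ha2 was 3.15 ± 0.0613 times that of P4ha1 in the control group, 2.70 ± 0.171 times in the thrombin group and 2.81 ± 0.0626 times in the PD03 group. The control libraries lay above both other groups (exact permutation p = 0.1 each), and the thrombin and PD03 libraries overlapped (p = 0.4).

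Serpinh1, the collagen chaperone, had the highest FPKM of the 10 genes in every group, 1297 ± 6.25 in the control group, 1062 ± 8.88 in the thrombin group and 1499 ± 48.3 in the PD03 group. Its libraries read 2568, 2594 and 2620.2 CPM in the control group, 2166, 2139 and 2144 CPM in the thrombin group and 3367, 3166 and 3215 CPM in the PD03 group. The 3 groups did not overlap, with thrombin lowest and PD03 highest. The log2 fold change was -0.27 with thrombin (SE 0.029, adjusted p = 4.9e-10), under the fold threshold. Serpinh1 rose by 0.60 in PD03 against thrombin (SE 0.029, adjusted p = 7.4e-21), a 1.51-fold higher level. This call was close to the threshold: it was lost without the first PD03 library (0.57), with library totals in place of TMM (0.50), with no filter on low counts (0.58), with the deposited FPKM (0.50 with 0.1 or 1 added) and when the change was tested against the threshold itself (adjusted p = 0.83). Against control the value with PD03 was 0.33 (SE 0.029, adjusted p = 2.5e-12).

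The promoter of Serpinh1 (GRCr8, chr1:163062977-163063226, minus strand) is shown because the gene is a known heat shock gene. Capitals mark GAANNTTC, the core letters of a heat shock element, which reads the same on both strands, and its first base lies 30 bases before the start.
Serpinh1: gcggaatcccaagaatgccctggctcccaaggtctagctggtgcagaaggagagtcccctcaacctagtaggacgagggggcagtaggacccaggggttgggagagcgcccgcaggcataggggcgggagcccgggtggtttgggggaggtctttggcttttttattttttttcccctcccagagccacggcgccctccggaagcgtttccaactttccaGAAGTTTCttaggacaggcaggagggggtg
The same letters were found in 3 of the 8 promoters (Plod1, Plod2 and Serpinh1) and in 7.23% of all promoters.

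**Figure D3:**
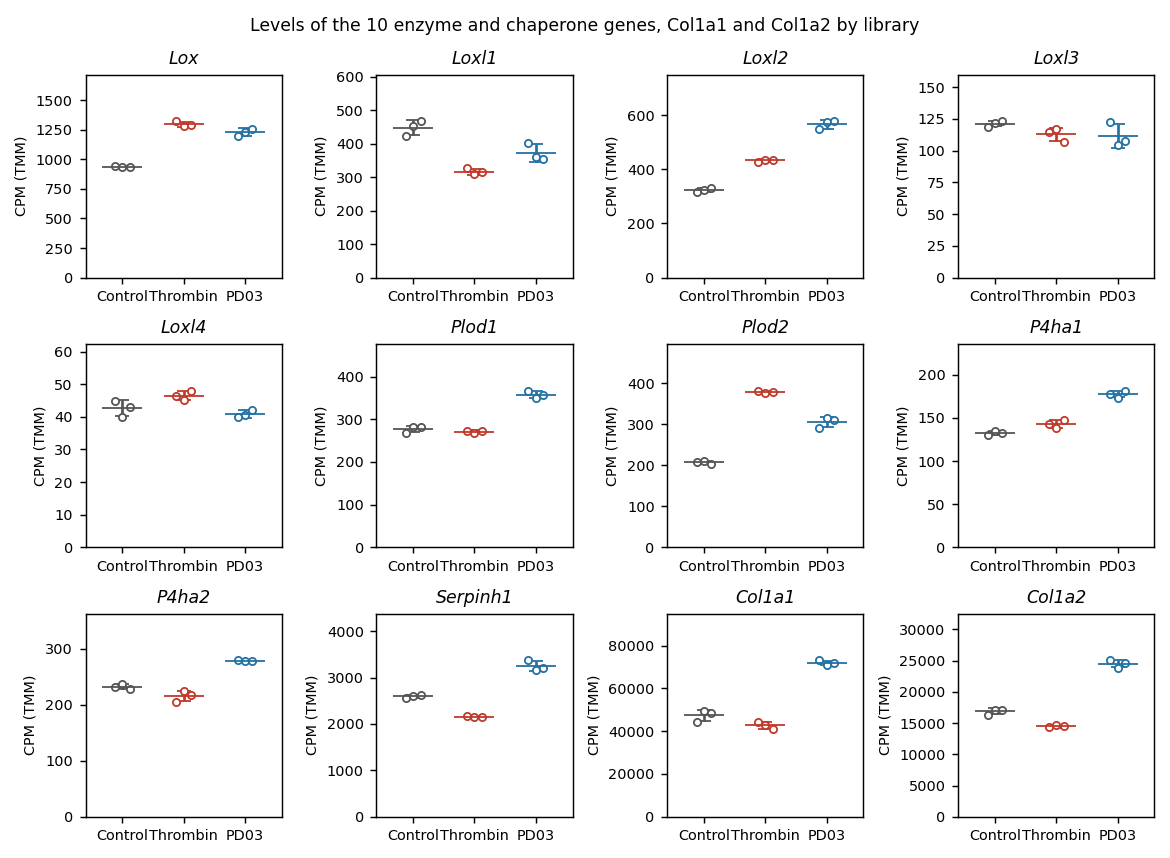
CPM after TMM scaling (y axis, from 0) of the 10 genes, Col1a1 and Col1a2 in the 3 groups (x axis). Open circles are single libraries, wide bars are means and whiskers are 1 SD over 3 libraries. Plod2 is highest in the thrombin group, and Loxl2 steps up from control to thrombin to PD03. Serpinh1, Plod1, P4ha2, Col1a1 and Col1a2 share the order thrombin, control, PD03 from the lowest to the highest mean.

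In the control group, FPKM ordered the 10 genes as Serpinh1 (1297), Lox (541 ± 7.61), Loxl1 (188 ± 7.43), P4ha2 (94.3 ± 1.92), Plod1 (68.1 ± 1.25), Loxl2 (67.2 ± 1.19), Plod2 (57.6 ± 1.17), Loxl3 (37.8 ± 0.341), P4ha1 (29.9 ± 0.315) and Loxl4 (11.6 ± 0.763). The libraries of Plod1 and Loxl2 overlapped, and those of every other pair of neighbours in this order did not. Loxl2 reached 88.9 ± 0.857 in the thrombin group and 109 ± 3.00 in the PD03 group, and Plod2 reached 104 ± 0.875 and 78.4 ± 3.29. Col1a1, at 8391 ± 407 in the control group, stood above all 10 genes per length.

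Relative to Col1a1, the picture differed between thrombin alone and thrombin with PD03. For this comparison the Col1a1 count of a library took the place of its total, so that a log2 fold change is the change of a gene minus that of Col1a1 and does not depend on how libraries are scaled. With thrombin, 2 of the 10 genes were called higher against Col1a1 and 0 lower, where 4.26% of all genes were called higher and 4.13% lower, and 8 of the 10 lay above Col1a1 (27.6% of all genes lay below it). In PD03 against thrombin 0 were called higher and 4 lower, and in PD03 against control 0 and 3. Since Col1a1 itself rose in both PD03 comparisons, 65.9% and 52.7% of all genes were called lower against it there and 2.50% and 1.20% higher, so the counts of lower genes are under the background. By the adjusted p-value alone, 5 of the 10 were higher and 1 lower than Col1a1 with thrombin (all genes 29.9% and 7.35%), 0 and 10 in PD03 against thrombin (all genes 3.63% and 82.1%) and 1 and 8 in PD03 against control (all genes 2.16% and 81.9%).

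With thrombin, the genes called higher against Col1a1 were Plod2 at 1.01 (SE 0.063, adjusted p = 1.9e-46) and Lox at 0.61 (SE 0.058, adjusted p = 1.2e-22), and Loxl2 at 0.57 (SE 0.061, adjusted p = 1.3e-17) was just short of the threshold. In counts per 1000 Col1a1 counts, Plod2 stood at 4.68, 4.28 and 4.18 in the control libraries, 8.57, 8.75 and 9.18 in the thrombin libraries and 3.99, 4.44 and 4.29 in the PD03 libraries. The thrombin libraries were far above the rest, and the control and PD03 libraries overlapped. Lox stood at 21.2, 18.9 and 19.2 in the control libraries, 29.7, 29.8 and 31.4 in the thrombin libraries and 16.3, 17.3 and 17.5 in the PD03 libraries, with no overlap between groups. Loxl1 was the gene furthest below Col1a1 with thrombin, at -0.35 (adjusted p = 1.8e-07), and Serpinh1 was at -0.13 (adjusted p = 0.060). The calls depended on single libraries at the threshold: without the first control library or without the first thrombin library, Loxl2 was called too (0.60 in both cases).

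When PD03 was set against thrombin, all 10 genes lay below Col1a1 in log2 fold change, as did 92.1% of all genes. The genes called lower against it were Plod2 at -1.06 (SE 0.062, adjusted p = 1.4e-51), Loxl4 at -0.94 (adjusted p = 4.7e-26), Lox at -0.83 (adjusted p = 1.8e-39) and Loxl3 at -0.77 (adjusted p = 2.6e-25). Serpinh1 came nearest to Col1a1 at -0.16 (SE 0.055, adjusted p = 0.0059). Plod1 at -0.35, Loxl2 at -0.37, P4ha2 at -0.39, P4ha1 at -0.44 and Loxl1 at -0.52 lay between. The median of the 10 differences was -0.482, where that of all genes was -0.741.

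In PD03 against control, Loxl2 alone among the 10 was above Col1a1, by 0.20 (SE 0.061, adjusted p = 0.0013), which was under the fold threshold, and 94.3% of all genes were below it. Loxl1 at -0.87 (adjusted p = 3.3e-38), Loxl3 at -0.72 (adjusted p = 9.8e-23) and Loxl4 at -0.67 (adjusted p = 3.1e-14) were called lower against it. Plod2 was at -0.05 (SE 0.063, adjusted p = 0.47), a difference the test did not separate from 0. The other 5 genes lay between -0.18 for P4ha1 and -0.35 for P4ha2. The median difference was -0.261 for the 10 genes and -0.612 for all genes. Without the first control library Loxl4 was at -0.58 and no longer called.

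**Figure D4:**
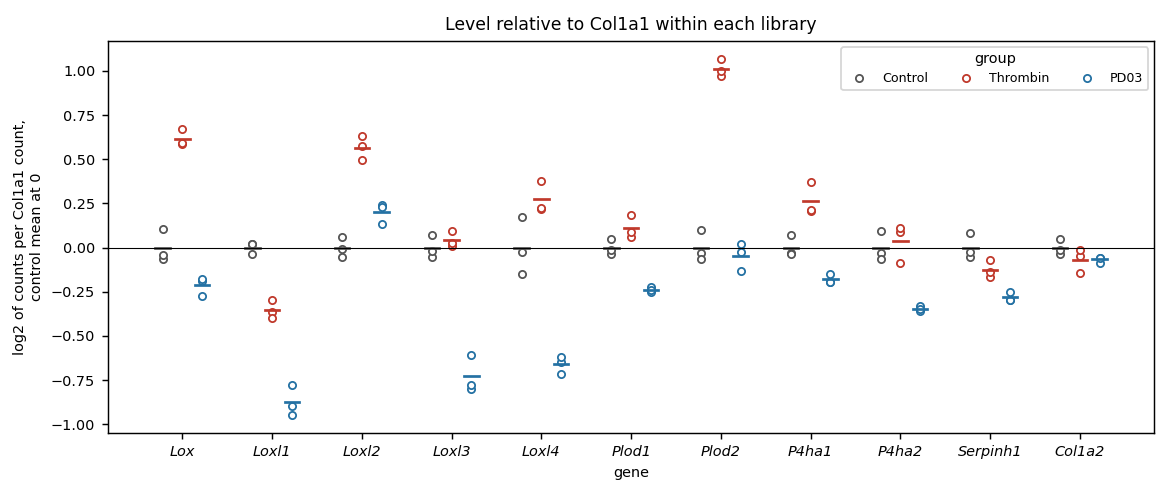
Log2 of a gene's count per Col1a1 count in each library, with the control mean of each gene set to 0 (y axis), for the 10 genes and Col1a2 (x axis). Open circles are single libraries and bars are group means of 3. Plod2 stands near 1 in the thrombin group and near 0 in the PD03 group, and Loxl1, Loxl3 and Loxl4 have their lowest values in the PD03 group.

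The 10 genes can also be placed by how closely their profile over the 9 libraries followed that of Col1a1, measured as the root mean square distance between centred log2 CPM values. Serpinh1 was nearest at 0.123, and 1.32% of all tested genes were nearer still. Plod1 followed at 0.151 (2.62% nearer), P4ha2 at 0.185 (4.99%), P4ha1 at 0.190 (5.48%) and Loxl2 at 0.239 (11.7%). Lox (0.356), Loxl3 (0.358), Loxl1 (0.363) and Loxl4 (0.403) had between 43.8% and 57.9% of genes nearer, and Plod2 was farthest at 0.493 with 77.5% nearer. By the same distance, the genes most like Col1a1 were Sparc, which encodes the collagen-binding matrix protein osteonectin, at 0.0362 and Sidt2 at 0.0366. Those most like Plod2 were Atp1b1 at 0.0609 and Postn at 0.0722, a matrix protein that binds collagen. Clmp (0.0293) was close to Lox, while the genes most like Loxl2 were Adgra3 (0.0348) and Plxdc2 (0.0515), and those most like Serpinh1 were Calcoco1 (0.0352) and Npc2 (0.0355).

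The other genes of collagen synthesis give the setting, as 56 genes listed by step, of which 52 could be tested. With thrombin, 2 were called higher and 4 lower (all genes 2.62% and 5.44%). In PD03 against thrombin 11 were called higher and 2 lower (all genes 9.61% and 6.31%), and in PD03 against control 8 higher and 2 lower (all genes 4.90% and 4.07%). Their median log2 fold changes of -0.0302, 0.304 and 0.278 can be set beside those of the 10 genes given above, and 45 of the 52 were below Col1a1 in each of the PD03 comparisons, where 92.1% and 94.3% of all genes were.

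Among the partners of the lysyl hydroxylases, Plod3 (which also adds glucose to hydroxylysine) had log2 fold changes of 0.10 with thrombin, 0.29 in PD03 against thrombin and 0.39 in PD03 against control (adjusted p = 0.097, 6.5e-07 and 1.8e-09). Of the 10 genes of prolyl hydroxylation, P4ha1 and P4ha2 included, 9 were higher and 1 lower by the adjusted p-value alone in PD03 against thrombin (all genes 25.3% and 24.5%). The exception was P3h2, a prolyl 3-hydroxylase known mainly for collagens of basement membranes, at 1.07 to 1.79 CPM in the control group, 2.32 to 3.55 in the thrombin group and 0.551 to 0.712 in the PD03 group. It rose by 1.15 with thrombin (SE 0.281, adjusted p = 0.0014) and fell by 2.25 in PD03 against thrombin (SE 0.321, adjusted p = 1.2e-07). P3h4, a partner of lysyl hydroxylation in the endoplasmic reticulum, rose by 0.61 in PD03 against control (adjusted p = 6.4e-16).

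Among 11 chaperone genes of the endoplasmic reticulum, Serpinh1 included, 2 were called higher and 0 lower in PD03 against thrombin (all genes 9.61% and 6.31%). The second was Fkbp7, a prolyl isomerase, which rose by 0.73 (SE 0.057, adjusted p = 2.3e-14). By the adjusted p-value alone 7 of the 11 were higher and 3 lower (all genes 25.3% and 24.5%). The 3 lower genes were Hspa5 at -0.57 (adjusted p = 2.1e-19), just short of the threshold, Hsp90b1 at -0.12 and Canx at -0.11. Of 9 genes of procollagen export, 0 were called with thrombin (all genes 2.62% higher and 5.44% lower) and 0 in PD03 against thrombin. Creb3l1, a transcription factor for collagen secretion, rose by 0.59 in PD03 against control (adjusted p = 1.8e-15). Of 6 tested genes of procollagen processing, 3 were called higher and 0 lower in PD03 against thrombin (all genes 9.61% and 6.31%). Adamts14 rose by 0.79 (adjusted p = 8e-16), Bmp1 by 0.70 (adjusted p = 1.3e-18) and Adamts2 by 0.66 (adjusted p = 7.2e-17). Bmp1 removes the C-terminal propeptide and also activates the Lox precursor, and the other two remove the N-terminal propeptide. Their changes minus that of Col1a1 were 0.04, -0.06 and -0.09, and none passed the test (adjusted p = 0.61, 0.40 and 0.18). Tll1, a relative of Bmp1, rose by 0.63 in PD03 against control (adjusted p = 1.5e-06).

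Among the other crosslinking genes, Tgm2, a transglutaminase that joins glutamine to lysine side chains, was called in all 3 comparisons. Its libraries spanned 80.0 to 85.8 CPM for control, 31.2 to 35.7 CPM for thrombin and 139.7 to 166 CPM for PD03. It fell by 1.31 with thrombin (SE 0.062, adjusted p = 4.1e-21), rose by 2.20 in PD03 against thrombin (SE 0.060, adjusted p = 3.7e-30) and rose by 0.90 in PD03 against control (SE 0.054, adjusted p = 1e-17). Fmod, a proteoglycan that binds collagen and Lox, rose by 1.08 in both PD03 comparisons (adjusted p = 3.8e-22 and 8e-22) and was at 0.01 with thrombin. Postn, whose protein brings Bmp1 and Lox to the matrix, rose by 0.77 with thrombin (adjusted p = 1.3e-18), and Eln, the elastin gene and a substrate of lysyl oxidases, fell by 1.14 with thrombin (adjusted p = 1.5e-07). Eln was low throughout, with 7.58 to 8.59 CPM in control libraries and 3.45 to 4.19 CPM in thrombin libraries.

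Of 11 fibrillar collagen chains, Col1a1 and Col1a2 included, 0 were called higher and 2 lower with thrombin (all genes 2.62% and 5.44%). In PD03 against thrombin 5 were called higher and 1 lower (all genes 9.61% and 6.31%). Col3a1, which forms fibrils together with type I collagen, rose by 0.83 in PD03 against thrombin (adjusted p = 1.7e-27), Col11a1 by 0.92 (adjusted p = 2e-24) and Col11a2, at 0.583 to 1.48 CPM in the thrombin group, by 1.77 (adjusted p = 6.7e-07). Col27a1 fell by 0.90 (adjusted p = 7.5e-13).

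**Figure D5:**
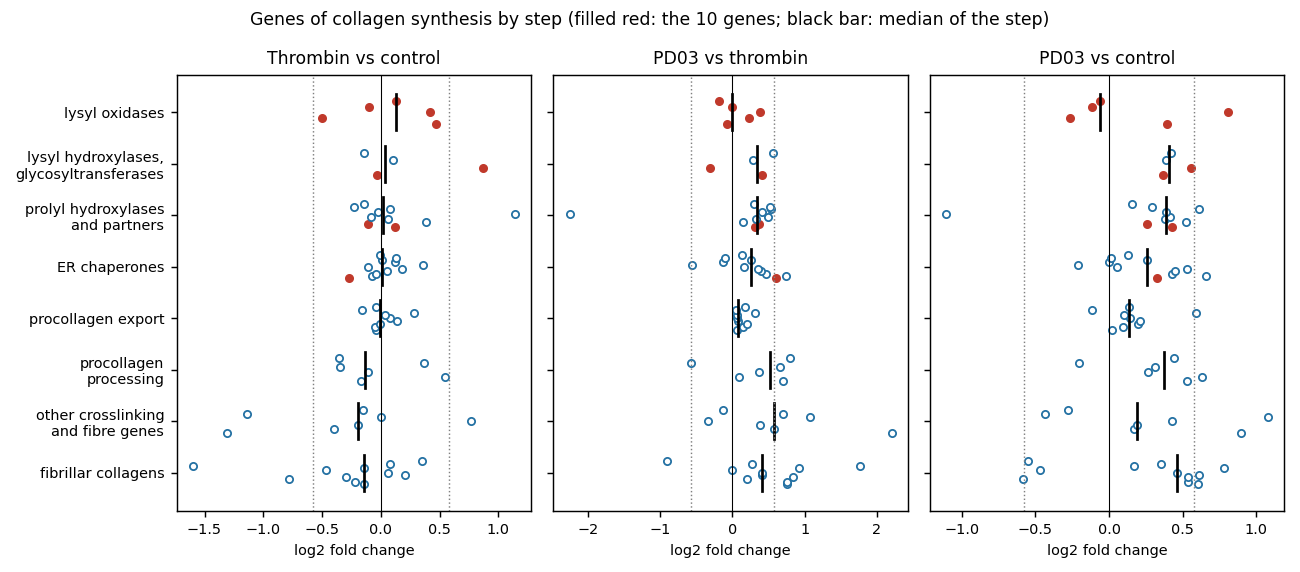
Log2 fold changes (x axis) of the tested genes of collagen synthesis, grouped by step (rows), in the 3 comparisons. Filled red points are the 10 genes, open blue points the others, black bars the median of a step and dotted lines the fold threshold of 0.58. The lysyl oxidases have a median of -0.01 in PD03 against thrombin, and the prolyl hydroxylases and their partners one of 0.34.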

How the data were processed

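The authors deposited 1 table with the raw read count and an FPKM value per gene and library, for 9 libraries. Per the paper, reads were trimmed with fastp, aligned with HISAT2 to Rnor_6.0 and counted with featureCounts. The submitters' processing notes name HISAT2, HTSeq 0.13.5 and mRatBN7.2 instead. For annotation release and strandedness, the sources used here give nothing. The deposited FPKM values served for levels between genes and as an alternative.

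Raw counts were analysed in R 4.3.3 with edgeR 4.0.16: filterByExpr (minimum count 10), TMM, 3 groups in 1 quasi-likelihood model, Benjamini-Hochberg adjustment over 13256 genes. The fold threshold of 0.58 follows the paper. In a second fit the Col1a1 count replaced the library size. On simulated data for thrombin against control (13167 genes), 85% of genes changed by 0.8 on the log2 scale and 97% of those changed by 1 were recovered, and 4 unchanged genes were called. Every simulated gene had the same spread beyond counting error, so these rates need not hold for the measured genes. DESeq2 1.42.0 and limma 3.58.1 gave alternatives. Plots were made in matplotlib 3.10.9 (Python 3.11.15).

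The 10 genes and all lists were chosen with earlier results of these data known. From each list, up to 4 called genes with the largest change and at least 1 CPM were named, and for each of the 10 genes the 2 nearest in profile, of which some are not reported here. Plod3, P4ha3, Hspa5, Hsp90b1, Canx, the marker genes, Eno1, Slc2a1, Ldha, Pgk1 and Ndrg1 were named after their values were seen, outside this rule. The replicate numbers do not pair the libraries.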

Additional observations from a re-analysis of the deposited data

How the results depend on the processing

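Other scalings (size factors, library totals, Col1a1 left out), filters, tests (DESeq2, limma voom), thresholds and units were tried, as was leaving out each library. Of the values of single genes, 653 kept their direction and call, 23 became called, 11 lost their call and 3 changed sign. For changes minus Col1a1 the numbers were 518, 18, 3 and 1. Most of the values that became called did so with no fold threshold, where the adjusted p-value alone decides, so they crossed no fold threshold. Loxl3 in PD03 against thrombin, at -0.01, turned to 0.00 without the second thrombin library, 0.03 without the second PD03 library and 0.01 without the third (-0.09 to 0.03 over all 9 libraries left out), and Plod2 minus Col1a1 in PD03 against control turned from -0.05 to 0.00 without the first control library (adjusted p = 0.97, range from -0.08 to 0.00). The number called higher in PD03 against thrombin fell from 1 to 0 (Serpinh1) with library totals, no filter, glmTreat, or FPKM with 0.1 or 1 added. With no fold threshold, higher and lower were 4 and 3 with thrombin, 6 and 3 in PD03 against thrombin and 7 and 1 in PD03 against control, and 6, 10 and 9 genes stood apart from Col1a1. With glmTreat, 1 gene stood apart from it with thrombin (Plod2), as Lox at 0.61 was lost. Of the 52 other collagen genes tested, 19 were called in at least 1 comparison, and 48 with no fold threshold. The share of all genes over the 3 comparisons together was not computed, so these counts have no background. By the adjusted p-value alone, PD03 against thrombin by itself had 25.3% of all genes higher and 24.5% lower. Without single libraries, the counts called higher ranged from 1 to 1 with thrombin, 0 to 1 in PD03 against thrombin and 1 to 2 in PD03 against control, those called lower were 0 to 0, those apart from Col1a1 were 2 to 3, 4 to 4 and 2 to 3, and the other collagen genes 17 to 21. Col1a1 in PD03 against control was short of the threshold with library totals (0.49), FPKM (0.49) and glmTreat. Library totals moved the median of all genes to -0.12 in PD03 against control and -0.0878 in PD03 against thrombin.

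The replicate numbers did not pair the libraries: same-numbered libraries of different groups had correlations of their deviations from -0.0456 to 0.0523, and 2 of 9 correlated best with their own number. With the number as a replicate block, 1, 1 and 1 genes were called higher, 0 lower, and 2, 4 and 3 apart from Col1a1 in the 3 comparisons, the same counts as without it.

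At the depth reached, Loxl4, the lowest of the 10 genes, had 629 to 825 counts per library, so depth limited only the low genes of the lists such as P3h2, Col11a2 and Eln. Protein levels, enzyme activity and crosslinks were not measured in these files.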
